A study of Mus musculus with 6 samples.

Results

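The cholesterol synthesis genes described here are 8 genes found by their symbol in the expression table of the series, which lists 18152 genes. They are Hmgcs1 (gene ID 208715), Idi1 (319554), Fdps (110196), Fdft1 (14137), Sqle (20775) and Lss (16987), which encode enzymes of the pathway, and Insig1 (231070) and Srebf2 (20788), which encode proteins that control it. All 8 were in the table and all 8 were among the 14131 genes tested. RNA was taken from the inner enamel epithelium (IEE) of the mandibular first molar of mouse embryos at E18.5, which had been cut out of frozen head sections by laser capture microdissection. The control group was 3 libraries of Kdf1 fl/fl mice, which the sample labels call WT, and the cKO group was 3 libraries of K14-Cre;Kdf1 fl/fl mice, which the labels call Kdf1 deletion. Both groups carry the floxed Kdf1 alleles on a C57BL/6J background, and only the cKO mice carry the Cre transgene. Cre under the keratin 14 promoter acts in epithelial cells, so mesenchymal cells of the cKO embryos keep the gene. The sources used here do not say whether a library holds 1 embryo or a pool.

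Cells make cholesterol from acetyl-CoA through the mevalonate pathway, which leads by way of isoprenoid diphosphates to squalene, lanosterol and cholesterol. The transcription factor SREBP2, the product of Srebf2, is held in the endoplasmic reticulum by INSIG proteins while sterols are plentiful, and when sterols fall it moves to the Golgi, is cleaved and switches on the genes of the pathway together. Cholesterol is a component of cell membranes, and in the tooth germ it is also attached to the signalling protein Sonic hedgehog, which IEE cells secrete.

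SREBP2 binds short elements in promoters, commonly beside CCAAT boxes, so the promoter windows of the genes were read for these letters. RefSeq windows on GRCm38.p6, from 250 bases before the annotated start of a gene to 50 bases after it, were held for 5 of the 8 genes (Hmgcs1, Idi1, Lss, Insig1 and Srebf2), and Sqle, Fdps and Fdft1 had none in the table used. The letters TCACNCCAC occurred in the window of Hmgcs1 alone, and the shorter TCACNCCA, which is contained in it, in those of Hmgcs1 and Srebf2. On both strands, 1.24% of 32851 windows of the same length held TCACNCCAC and 4.36% held TCACNCCA. CCAAT was found in all 5 windows, against 37.4% of all windows, with 4 copies in Hmgcs1, 2 in Idi1 and 1 in each of Lss, Insig1 and Srebf2. GGGCGG was also found in all 5, against 35.7% of all windows. This was not particular to the 5 genes. Of the 15 other enzymes of cholesterol synthesis described below, 13 had a window, and CCAAT and GGGCGG were each found in 12 of these 13. TCACNCCA was in 1 of the 13 and TCACNCCAC in 0. Of 10 genes of cholesterol uptake and transport, 4 had a window, and all 4 held both CCAAT and GGGCGG. The windows of Hmgcs1 (chr13:119690101-119690400, plus strand) and Srebf2 (chr15:82147019-82147318, plus strand) are shown because they hold the sterol element letters. Capitals mark TCACNCCAC or TCACNCCA and CCAAT, the last of which reads ATTGG here because every copy lies on the other strand:
Hmgcs1: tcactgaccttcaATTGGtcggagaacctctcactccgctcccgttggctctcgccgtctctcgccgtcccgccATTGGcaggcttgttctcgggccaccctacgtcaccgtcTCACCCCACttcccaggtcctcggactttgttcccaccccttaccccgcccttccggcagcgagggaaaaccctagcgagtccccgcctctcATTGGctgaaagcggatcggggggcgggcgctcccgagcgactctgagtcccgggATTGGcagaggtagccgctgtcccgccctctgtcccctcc
Srebf2: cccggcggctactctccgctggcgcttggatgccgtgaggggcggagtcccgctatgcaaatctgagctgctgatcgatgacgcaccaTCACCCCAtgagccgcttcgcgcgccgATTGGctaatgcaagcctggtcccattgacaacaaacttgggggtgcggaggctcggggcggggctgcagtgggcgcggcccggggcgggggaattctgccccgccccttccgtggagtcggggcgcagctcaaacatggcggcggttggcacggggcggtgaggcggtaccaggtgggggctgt
The sterol element letters begin at position −137 in Hmgcs1 and −162 in Srebf2, counted from the annotated start. These are matches of letters and were not tested for binding.

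In the control IEE the 8 genes were all expressed, with 350 to 5472 estimated reads per gene in any library of the series, so that none was near the detection limit. Levels between genes were compared in TPM, which is scaled by transcript length. Fdps was the most abundant of them in the controls, with 180.7 ± 46.8 TPM (SD, n = 3), followed by Srebf2 with 117.6 ± 7.83 TPM, Hmgcs1 with 98.1 ± 0.470 TPM and Sqle with 81.9 ± 3.52 TPM. Insig1 had 64.5 ± 7.62 TPM, Fdft1 47.8 ± 7.62 TPM, Idi1 46.8 ± 6.88 TPM and Lss 14.4 ± 1.66 TPM. The control libraries of neighbours in this order did not overlap, except those of Insig1 with Fdft1 and of Fdft1 with Idi1. Within each control library Insig1 was above Fdft1. Fdft1 and Idi1 changed places between control libraries and therefore cannot be ranked. In the cKO libraries every pair of neighbours overlapped, and Insig1 came before Sqle in the order of the means. By their means Fdps, Srebf2 and Hmgcs1 led in both groups.

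None of the 8 genes passed the test between cKO and control. By the quasi-likelihood test of edgeR, with p values adjusted over all genes by Benjamini-Hochberg, 0 of 8 had an adjusted p of at most 0.05, where 0.545% of all genes tested did, and 1 of 8 (Sqle) had an unadjusted p of at most 0.05, where 24.5% of all genes did. The study's thresholds also ask for a change of at least 1 on the log2 scale in either direction. Added to this edgeR test, they can only keep the count at 0 of 8, and they left 61 genes, or 0.432% of all. The sources used here do not name the study's own test. DESeq2 also called 0 of 8, at 12.6% of all genes, with 1 of 8 at an unadjusted p of at most 0.05 (26% of all genes). With the study's thresholds DESeq2 passed 980 genes of the whole table and 0 of 8. With the replicate number as a block, edgeR called 0 of 8, at 9.87% of all genes, with 2 of 8 at that unadjusted p (29.3% of all genes). The log2 fold change was below 0 in 7 of the 8 genes, against 50.5% of all genes, and its median was −0.39 against −0.00 over all genes tested. In cKO replicates 1 and 3 all 8 genes were below every control library, and in cKO replicate 2 they stood at 88.8% to 201.2% of the control mean. All of these values come from bulk RNA, in which fewer cells of a type and less RNA per cell cannot be told apart.

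**Figure D1:**
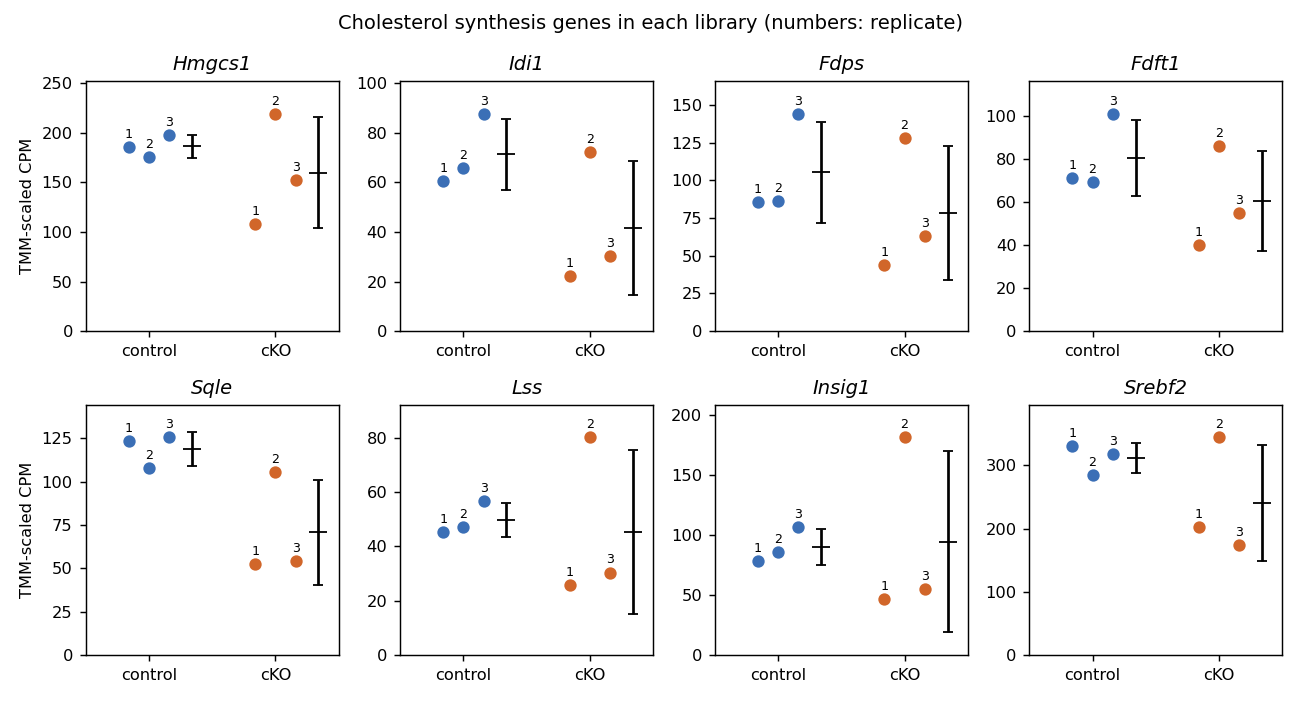
TMM-scaled CPM (read counts scaled to the adjusted library size) of each gene in the 3 control and 3 cKO libraries, with the replicate number beside each point and the group mean ± SD as a bar to the right of the points. In every panel cKO replicates 1 and 3 lie below all controls and cKO replicate 2 is the highest cKO library.

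At the entry to the pathway, Hmgcs1 encodes the cytosolic synthase that makes HMG-CoA. It had 185 CPM, 175 CPM and 198 CPM in control replicates 1, 2 and 3, and 108 CPM, 219 CPM and 152 CPM in cKO replicates 1, 2 and 3. The controls lay close together, and the cKO libraries lay on both sides of them. The log2 fold change was −0.22 (SE 0.24), or 85.8% of the control level with a 95% interval from 58.0% to 127.1% (edgeR, Benjamini-Hochberg adjusted p = 0.605).

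Idi1 encodes the isomerase that interconverts the isoprenoid building blocks isopentenyl and dimethylallyl diphosphate. Its levels were 60.7 CPM, 65.8 CPM and 87.7 CPM in the controls and 22.1 CPM, 72.4 CPM and 30.3 CPM in the cKO libraries, again in the order of the replicates. cKO replicates 1 and 3 were at 31.0% and 42.4% of the control mean and replicate 2 was inside the control range. This was the largest average difference of the 8 genes on the log2 scale, −0.78 (SE 0.42), with an interval from 29.2% to 116.2% of the control level (edgeR, Benjamini-Hochberg adjusted p = 0.297). Fdps encodes farnesyl diphosphate synthase, whose product is the branch point to sterols, dolichol, ubiquinone and prenylated proteins. It had 85.5 CPM, 86.2 CPM and 144 CPM in the controls and 43.7 CPM, 128 CPM and 63.0 CPM in the cKO libraries. Control replicate 3 stood above the other two, and only cKO replicate 2 reached into the control range. Fdps changed by −0.43 (SE 0.41) on the log2 scale, with an adjusted p of 0.552 (edgeR, Benjamini-Hochberg).

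Among the enzymes that commit the pathway to sterols, cKO replicates 1 and 3 again lay below all controls, while replicate 2 lay inside the control range for Fdft1, just below it for Sqle and above it for Lss. Fdft1 encodes squalene synthase and had 71.3 CPM, 69.4 CPM and 101 CPM in the controls against 40.2 CPM, 86.1 CPM and 55.1 CPM in the cKO libraries. Its log2 fold change was −0.41 (SE 0.29), with an adjusted p of 0.414 (edgeR, Benjamini-Hochberg). Sqle encodes squalene epoxidase, which puts oxygen on squalene and is a rate-limiting step of the sterol branch. It had 123 CPM, 108 CPM and 125 CPM in the controls and 52.7 CPM, 106 CPM and 54.0 CPM in the cKO libraries. Sqle was the one gene of the 8 whose groups did not overlap, by the small margin between cKO replicate 2 and control replicate 2, where 16.2% of all genes tested had every cKO library below every control library. It stood at 59.5% of the control level, with an interval from 38.0% to 93.1%, a change of −0.75 (SE 0.27) on the log2 scale and an adjusted p of 0.158 (edgeR, Benjamini-Hochberg). The adjusted p of Sqle was 0.0779 in DESeq2 and 0.102 with the replicate block in edgeR, both Benjamini-Hochberg adjusted. Lss encodes lanosterol synthase, which folds the epoxide of squalene into the first sterol, and had 45.5 CPM, 47.1 CPM and 56.8 CPM in the controls. In the cKO libraries it had 25.8 CPM, 80.2 CPM and 30.4 CPM, so replicate 2 was above all controls and the other two below them. The average difference of Lss was −0.13 (SE 0.41) on the log2 scale, with an adjusted p of 0.873 (edgeR, Benjamini-Hochberg).

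Insig1, whose product keeps SREBP in the endoplasmic reticulum, is itself switched on by SREBP. It had the widest spread of the 8 genes in the cKO group. The controls had 78.0 CPM, 85.5 CPM and 107 CPM, and the cKO libraries had 46.3 CPM, 181 CPM and 55.2 CPM. Replicate 2 was 3.91 times replicate 1 and 3.28 times replicate 3, and 201.2% of the control mean. The mean difference was therefore close to 0, at 0.07 (SE 0.50) on the log2 scale, with an interval from 46.3% to 236.7% of the control level (edgeR, Benjamini-Hochberg adjusted p = 0.952), and its sign is not settled, since it was −0.22 with the replicate block. Srebf2 itself had 331 CPM, 284 CPM and 319 CPM in the controls and 203 CPM, 344 CPM and 174 CPM in the cKO libraries. It thus followed the enzymes, with replicates 1 and 3 at 65.0% and 55.8% of the control mean and replicate 2 at 110.6%. The log2 fold change of Srebf2 was −0.37 (SE 0.25), with an adjusted p of 0.399 (edgeR, Benjamini-Hochberg).

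**Figure D2:**
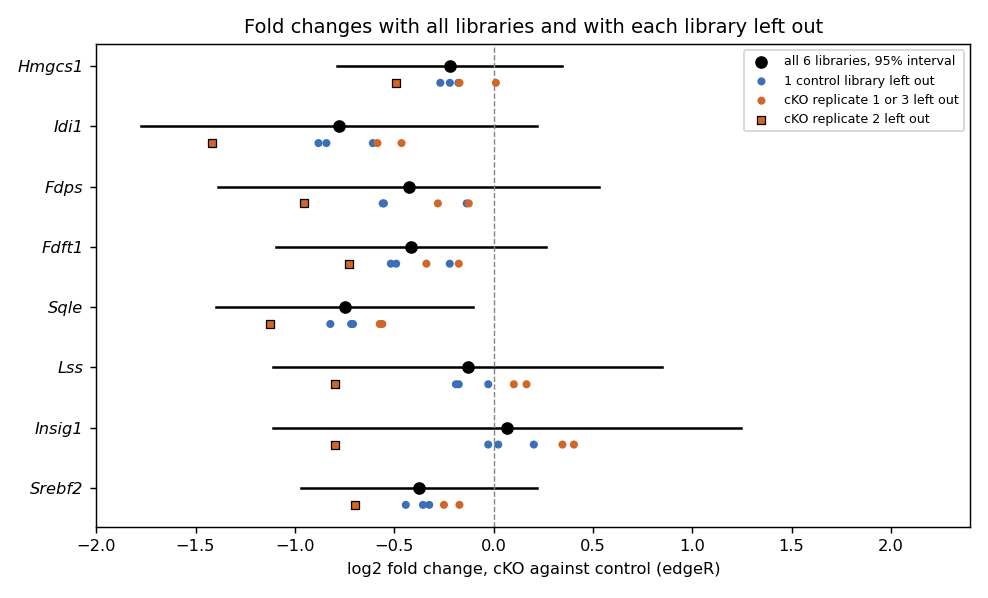
Log2 fold change of cKO against control for each gene, with all 6 libraries (black point, line for the 95% interval) and, on the line under it, with each library left out in turn (blue for a control, orange for a cKO library, square for cKO replicate 2). The interval of Sqle alone stays below 0 before adjustment over all genes, and the square is the lowest value for each gene.

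The difference between cKO libraries was common to the 8 genes. Replicate 2 was the highest cKO library for 8 of 8 genes, against 30.7% of all genes tested. cKO replicate 1 was below every control library for 8 of 8 genes (39.3% of all genes) and cKO replicate 3 likewise for 8 of 8 (34% of all genes), whereas replicate 2 was below them for 1 of 8 (37.4% of all genes) and above all of them for 4 of 8 (36.7% of all genes). Replicate 2 exceeded replicate 1 by 1.70 times for Srebf2 to 3.91 times for Insig1, and replicate 3 by 1.44 times for Hmgcs1 to 3.28 times for Insig1. The SD of log2 CPM over the cKO libraries had a median of 0.68 for the 8 genes and 0.27 for all genes tested, and the corresponding medians in the controls were 0.20 and 0.17. For each of the 8 genes, at least 78.1% of all genes tested had a smaller SD in the cKO group.

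In summed TPM the 8 genes had 611, 621 and 723 in control replicates 1, 2 and 3, and 364, 812 and 382 in cKO replicates 1, 2 and 3. The group means were 652 ± 61.7 and 519 ± 253.7 (SD, n = 3 per group), so the spread in the cKO group was larger than the difference of the means. cKO replicates 1 and 3 held 55.8% and 58.7% of the control mean, and cKO replicate 2 held 124.6%. The make-up of the sum varied less than its size. Fdps gave 23.3% to 32.4% of it in every library, Srebf2 15.4% to 23.6%, Hmgcs1 13.5% to 20.8%, Sqle 9.23% to 14.0%, Fdft1 6.29% to 8.42%, Idi1 4.49% to 7.46% and Lss 2.11% to 2.87%. Insig1 gave 16.5% in cKO replicate 2 and 9.24% to 10.5% in the other 5 libraries.

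Each library was left out in turn to see what the averages rest on. The median log2 fold change of the 8 genes was −0.80 without cKO replicate 2, −0.15 without cKO replicate 1 and −0.23 without cKO replicate 3. Without control replicates 1, 2 and 3 it was −0.41, −0.48 and −0.20. In each of these 6 fits 0 of 8 genes had a Benjamini-Hochberg adjusted p of at most 0.05 in edgeR, where 1 to 623 genes of the whole table did. At an unadjusted p of at most 0.05 the count was 1 of 8 without control replicate 2. It was 0 of 8 without each other library but cKO replicate 2. In these fits 13.8% to 30.3% of all genes tested had such a p. Without cKO replicate 2, 8 of 8 had an unadjusted p of at most 0.05 and were lower, against 8.85% of all genes tested in that fit. Their adjusted p values lay between 0.103 and 0.190 (edgeR, Benjamini-Hochberg). That library was the highest of the cKO group for 8 of 8 genes, so leaving it out lowers their cKO mean in any case. In that fit 1 gene of the whole table passed the adjusted threshold, or 0.00699%. The fit without cKO replicate 2 is 1 of 6 made alike, and no label read here sets that library apart from the other cKO libraries.

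The targeted gene was checked first for all libraries. Kdf1 had 52.5 CPM, 44.3 CPM and 52.7 CPM in the controls and 1 read in all 3 cKO libraries together, in replicate 2, which is at least 252-fold lower when each cKO library is set to the limit of 3 counts. cKO replicate 2 thus had the deletion like the others. The epithelial keratin Krt14 was detected in all libraries, with 1265 CPM, 1121 CPM and 2315 CPM in the controls and 455 CPM, 399 CPM and 811 CPM in the cKO libraries, and Epcam, which encodes an epithelial adhesion protein, had 248 to 418 CPM in the controls and 284 to 357 CPM in the cKO group. The summed level of 10 dental epithelium markers was 7549 to 10627.5 TPM in the controls and 4785 TPM, 4368 TPM and 6826 TPM in cKO replicates 1, 2 and 3, and 8 markers of the IEE and ameloblasts summed to 6491 to 37031.6 TPM and 1714 to 4023 TPM. Of these, 5 of 10 and 5 of 8 genes were lower in every cKO library, as were 16.2% of all genes tested. The sum of 10 mesenchyme markers was 1929 to 9121 TPM in the controls and 4753 to 6053 TPM in the cKO group. In every cKO library 5 of 10 were higher (14.5% of all genes tested) and 1 of 10 lower (16.2% of all genes tested). No marker of these 3 lists was at 0 in all libraries. The sum of 9 immune markers was 77.8 to 138 TPM in the controls and 674 TPM, 296 TPM and 233 TPM in the cKO libraries, and that of 6 endothelium markers was 128 to 173 TPM and 502 TPM, 278 TPM and 170 TPM. Of these, 6 of 9 and 3 of 6 genes were higher in every cKO library, as were 14.5% of all genes tested. The part of these cell types in the levels of the cholesterol genes was not tested. cKO replicate 2 had the highest sum of the cKO libraries in 0 of these 5 lists. The sum of 6 proliferation markers was 443 to 684 TPM in the controls and 511 TPM, 700 TPM and 377 TPM in the cKO libraries. Replicate 2 was the highest cKO library for 6 of 6 of these genes and for 30.7% of all genes tested. The part of proliferating cells in the levels of replicate 2 was not tested. Erythroid markers summed to 4369 to 6645 TPM in the controls and 4461 to 7172 TPM in the cKO group, markers of keratinised epithelium to 36.2 to 107 TPM and 14.7 to 15.9 TPM, neural markers to 174 to 367 TPM and 85.8 to 149.7 TPM, and muscle markers to 2.20 to 5.97 TPM and 3.91 to 11.5 TPM.

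The profile of the 8 genes over the 6 libraries was compared with that of every other gene tested, by the root mean square distance between log2 CPM values centred on each gene's own mean. The 5 nearest genes outside the list were led by Cyp51, Stard4 and Msmo1, at distances of 0.10, 0.15 and 0.16 on the log2 scale. Cyp51 and Msmo1 encode demethylating enzymes of the lanosterol to cholesterol part of the pathway, and Stard4 a protein that carries sterols between membranes. Cyp51 had 131 CPM, 112 CPM and 139 CPM in the controls and 63.8 CPM, 145 CPM and 67.4 CPM in the cKO libraries. Stard4 had 26.4 CPM, 25.5 CPM and 27.3 CPM in the controls and 15.9 CPM, 33.5 CPM and 15.5 CPM in the cKO libraries. The 5 were chosen by this profile over the same libraries, so a shared pattern follows from the choice. Like the 8 genes, each of the 5 was lower in cKO replicates 1 and 3 than in any control. With ranks over all 14131 genes, these 5 and Fdft1, Lss and Fdps took the 8 nearest places, and the ranks of the 8 genes ran from 2 to 67, which is helped by their own share in the mean profile.

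**Figure D3:**
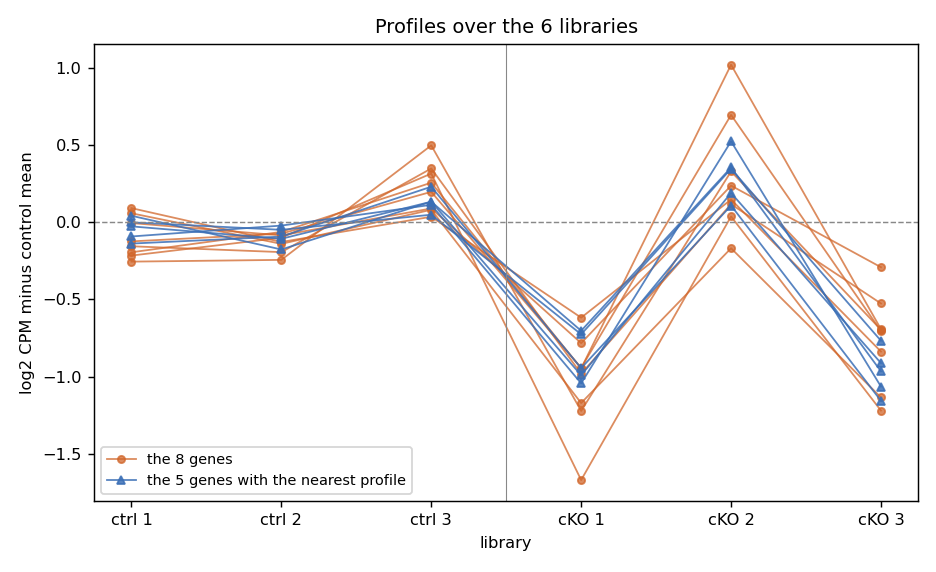
Log2 CPM minus the control mean in each library for the 8 genes (orange circles) and the 5 genes outside the list with the nearest profile (blue triangles). Lines join the values of 1 gene and imply no order of libraries. All 13 genes are low in cKO replicates 1 and 3, and 12 of them are at or above the control mean in cKO replicate 2.

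The remaining enzymes of cholesterol synthesis, 15 genes, behaved alike in part. In edgeR 0 of 15 passed the test, with 1 of 15 at an unadjusted p of at most 0.05. DESeq2 and the replicate block gave the same counts. The log2 fold change was below 0 for 13 of 15 (50.5% of all genes tested), with a median of −0.22. cKO replicate 1 was below all controls for 13 of 15, replicate 3 for 11 of 15 and replicate 2 for 1 of 15, and replicate 2 was the highest cKO library for 13 of 15. The lowest p values were those of Hsd17b7, which encodes a sterol ketoreductase, and of Pmvk, which encodes phosphomevalonate kinase. Hsd17b7 was at 21.2 ± 3.28 CPM in the controls and 12.9 ± 5.27 CPM in the cKO group (SD, n = 3 per group), which is −0.72 (SE 0.29) on the log2 scale with an adjusted p of 0.189 (edgeR, Benjamini-Hochberg). The log2 fold change of Pmvk was −0.33 (SE 0.19), with an adjusted p of 0.314 (edgeR, Benjamini-Hochberg). Pmvk departed from the common profile, with 16.6 CPM, 15.6 CPM and 16.4 CPM in the cKO libraries, and so did Ebp, Lbr and Tm7sf2, which ranked from 2579 to 5582 in nearness. Among the 100 genes nearest to the mean profile, or 0.708% of all genes, were 9 of these 15 enzymes, a cutoff chosen after the ranks were seen.

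**Figure D4:**
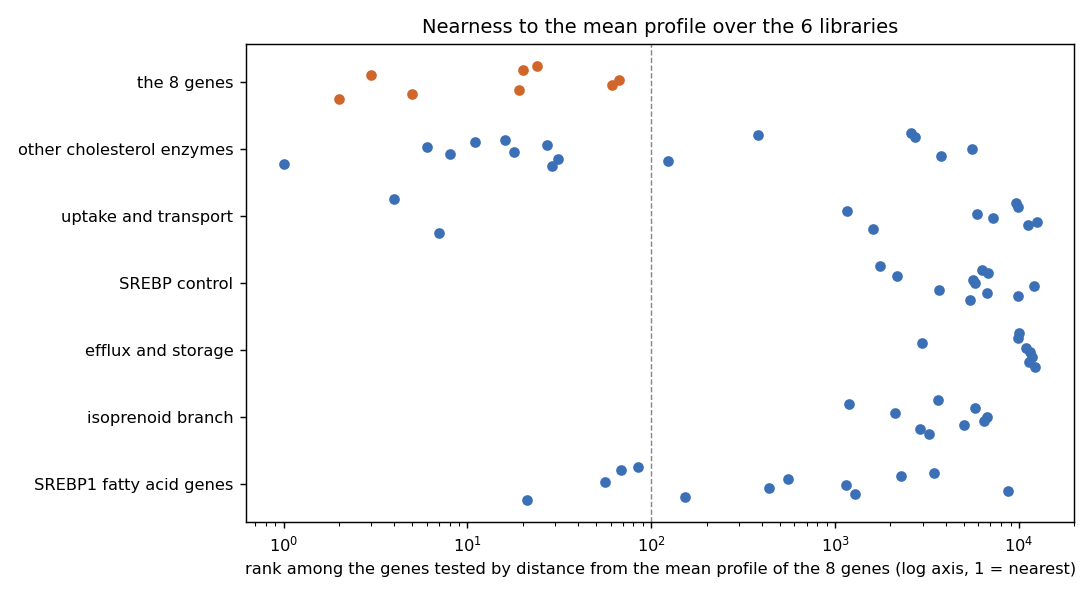
Rank of each gene among the 14131 genes tested by the distance of its profile from the mean profile of the 8 genes, on a log axis, with the dashed line at rank 100. The 8 genes, 9 of 15 other enzymes, 2 of 10 uptake and transport genes and 4 of 12 fatty acid genes lie left of the line, and none of the other 3 lists has a gene there.

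Apart from Insig1, the genes of the proteins that sense sterols and release SREBP did not share the pattern. In the list of SREBP control, 11 genes were tested and 0 passed in edgeR, with 0 at an unadjusted p of at most 0.05 (DESeq2 and the block gave 0 called and 1 at that p), a median log2 fold change of −0.04 and 0 genes among the 100 nearest profiles. Mbtps1, which encodes the site-1 protease that cleaves SREBP and had the highest TPM of this list, was at 185 ± 15.6 TPM in the controls and 190 ± 28.8 TPM in the cKO group. Insig2, the relative of Insig1 that is not driven by SREBP in the same way, had 31.0 CPM, 27.9 CPM and 37.2 CPM in the controls and 60.0 CPM, 29.0 CPM and 55.9 CPM in the cKO libraries. Here cKO replicates 1 and 3 were above every control and replicate 2 was inside the control range. For Insig1, cKO replicates 1 and 3 were below every control and replicate 2 was above every control. The log2 fold change of Insig2 was 0.59 (SE 0.28), with an adjusted p of 0.234 (edgeR, Benjamini-Hochberg). Scap, the escort of SREBP, changed by −0.23 (SE 0.14) on the log2 scale, with an adjusted p of 0.342 (edgeR, Benjamini-Hochberg).

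Among 10 genes of cholesterol uptake and transport, 1 passed the test in edgeR (0.545% of all genes tested). It was higher in the cKO group. Mylip, which encodes a ubiquitin ligase that limits cholesterol uptake, rose from 27.0 ± 4.70 CPM to 64.3 ± 10.5 CPM (SD, n = 3 per group), which is 1.25 (SE 0.18) on the log2 scale with an adjusted p of 0.0498 (edgeR, Benjamini-Hochberg). It had 67.0 CPM, 73.1 CPM and 52.7 CPM in cKO replicates 1, 2 and 3 and no more than 30.5 CPM in any control, so it did not follow the split among the cKO libraries. The call of Mylip held in DESeq2 (adjusted p = 1.18e-06) and with the replicate block (0.00558, edgeR), both Benjamini-Hochberg adjusted. It was lost, with adjusted p values of 0.0515 to 0.0662, under other scalings (DESeq2's size factors in edgeR, library size alone), a stricter filter (10 counts or more in each library), limma-voom and both TPM fits, and with 0.0832 to 0.210 in 5 of the 6 edgeR fits that left out 1 library, the exception being cKO replicate 3. Osbp, an oxysterol-binding protein gene, was lower in every cKO library (16.2% of all genes tested). It changed by −0.41 (SE 0.14) on the log2 scale. Lipa, which encodes the lysosomal lipase that frees cholesterol, changed by 0.67 (SE 0.26). The adjusted p values of Osbp and Lipa were 0.137 and 0.176 (edgeR, Benjamini-Hochberg). Npc2, a lysosomal cholesterol carrier with the highest TPM of this list, was at 106 ± 5.23 TPM in the controls and 127 ± 12.5 TPM in the cKO group.

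Of the genes of cholesterol efflux and storage, 8 of 9 were tested and 0 passed in edgeR. Of these 8, 3 had an unadjusted p of at most 0.05, where 24.5% of all genes tested did. Abca1, which encodes a membrane pump for cholesterol, had 56.8 CPM, 66.3 CPM and 58.3 CPM in the controls and 139 CPM, 78.3 CPM and 109 CPM in the cKO libraries, which is 0.84 (SE 0.21) on the log2 scale. Apoe, the gene of a lipoprotein that carries cholesterol and the one with the highest TPM of this list, had 143 CPM, 148 CPM and 156 CPM in the controls and 323 CPM, 239 CPM and 222 CPM in the cKO libraries, which is 0.81 (SE 0.16) on the log2 scale. Cyp27a1, which encodes a sterol hydroxylase, was at 16.7 ± 5.96 CPM and 4.42 ± 1.16 CPM in control and cKO, which is −1.92 (SE 0.35) on the log2 scale. The groups did not overlap in any of these 3 genes. Over all genes tested, 14.5% were higher in every cKO library, like Abca1 and Apoe, and 16.2% were lower, like Cyp27a1. Their adjusted p values were 0.0837, 0.0648 and 0.0637 in edgeR, 0.00662, 0.000576 and 3.12e-05 in DESeq2, and 0.0600, 0.0300 and 0.0273 with the replicate block in edgeR, all Benjamini-Hochberg adjusted, so that DESeq2 called all 3 and the block called Apoe and Cyp27a1. DESeq2 and the block called 12.6% and 9.87% of all genes tested. Macrophages also express Apoe and Abca1, and the immune markers above were higher in the cKO group. Their part in these values was not tested.

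The isoprenoid branch, which uses the product of Fdps for other ends, had 9 genes tested, 0 that passed in edgeR, DESeq2 or with the block, 0 with an unadjusted p of at most 0.05 in any of these, and a median log2 fold change of −0.12. Its lowest p values were those of Fntb, Dhdds and Ggps1, with log2 fold changes of −0.29 (SE 0.14), −0.28 (SE 0.14) and 0.29 (SE 0.16) and adjusted p values of 0.262, 0.269 and 0.297 (edgeR, Benjamini-Hochberg). Fnta, a subunit of the farnesyl and geranylgeranyl transferases with the highest TPM of this list, was at 57.1 ± 4.25 TPM and 59.8 ± 1.96 TPM in control and cKO.

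The fatty acid genes that SREBP1 drives were lower on average for 9 of 12 (50.5% of all genes tested), with a median of −0.44. In edgeR 1 of 12 passed, against 0.545% of all genes tested. Me1, which encodes the malic enzyme that supplies NADPH, fell from 143 ± 5.94 CPM to 65.9 ± 10.9 CPM (SD, n = 3 per group), which is −1.12 (SE 0.14) on the log2 scale with an adjusted p of 0.0498 (edgeR, Benjamini-Hochberg). All cKO libraries were low, with 53.4 CPM, 73.4 CPM and 71.1 CPM in replicates 1, 2 and 3. The fatty acid elongase gene Elovl6 and the desaturase gene Scd2, the most abundant in TPM of the list, were also lower in every cKO library, with log2 fold changes of −0.58 (SE 0.15) and −0.62 (SE 0.19) and adjusted p values of 0.0872 and 0.120 (edgeR, Benjamini-Hochberg). DESeq2 called these genes too, with adjusted p values of 0.0116 and 0.0254 (Benjamini-Hochberg). Replicate 2 was the highest cKO library for 11 of 12 genes (30.7% of all genes) and was below all controls for 6 of 12 (37.4% of all genes). The call of Me1 was likewise lost in the 5 fits that left out another library than cKO replicate 3, with adjusted p values of 0.0821 to 0.210 (edgeR, Benjamini-Hochberg), and with the same other scalings, filter and limma-voom (0.0515 to 0.0613), but not in the TPM fits.

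**Figure D5:**
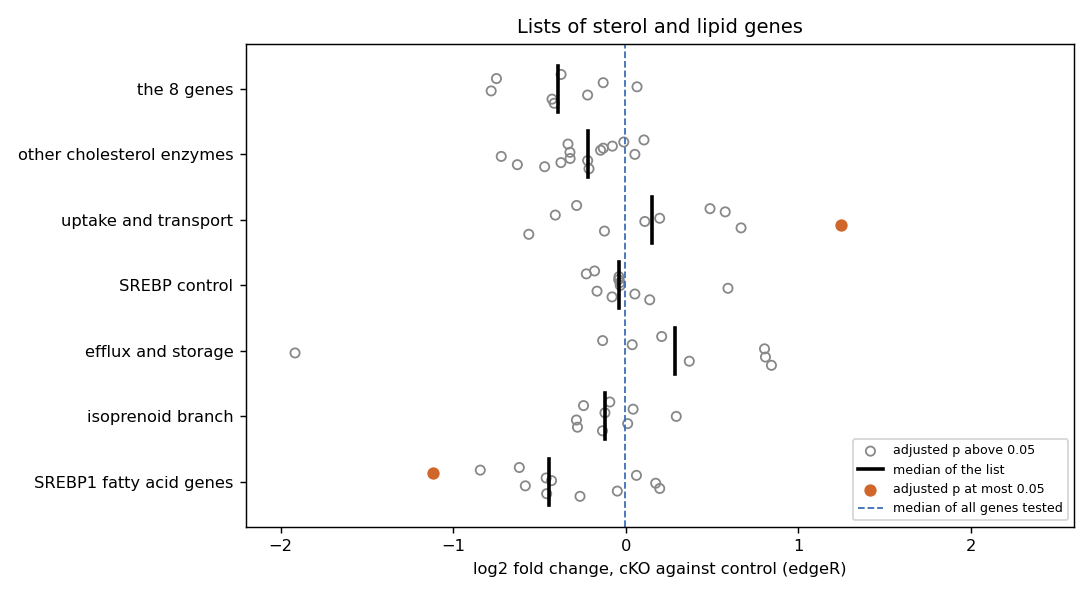
Log2 fold change of cKO against control for each gene tested in the 7 lists, with filled points for an adjusted p of at most 0.05 in edgeR, a black bar for the median of each list and a dashed line for the median of all genes. The medians are −0.39 for the 8 genes, −0.22 for the other enzymes and −0.44 for the fatty acid genes, and Mylip and Me1 are the filled points.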

How the data were processed

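RNA-seq libraries of the IEE at E18.5 were compared, 3 per genotype. The submitters' processing notes name BWA 0.7.12, Picard 2.6.0 and StringTie without their roles, and the genome build was not given in the sources used here. The deposited estimated counts are the authors' reads per gene without normalisation. In each library 10.9% to 11.5% of them were not whole, among them every value of Idi1 and Fdft1, whose levels are less certain, since reads may have been split between features. TPM were deposited by the authors as levels scaled by length, and the deposited FPKM and group averages of the authors were not used.

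Estimated counts were rounded. Totals were 14713918 to 16675133 per library. A count of 0 allows 3 counts, which covers counting error only. Genes passing filterByExpr were scaled by TMM and compared in edgeR 4.0.16 (R 4.3.3) by robust quasi-likelihood F-tests, two-sided, with Benjamini-Hochberg adjustment over 14131 genes. Intervals are 95%. CPM refer to TMM-scaled library sizes, and profiles used log2 CPM with a prior count of 0.5. Alternatives were DESeq2 1.42.0, limma 3.58.1 with voom or on log2(TPM + 1) and log2(TPM + 0.1), other scalings and filters, the replicate number as a block, and leaving out each library. Same-numbered libraries of both groups deviated together, with correlations of 0.134, 0.304 and 0.478 across genes. The replicate block therefore reads the numbers as pairs, from the data and not from a label. The reported fit, with its p values, SEs and intervals, does not use pairs. For replicate 1 this rests on little, since control replicate 2 correlated with cKO replicate 1 at 0.141. No libraries were duplicates.

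The 8 genes and all lists were chosen with earlier results of these data known. Named genes were the 8, Kdf1, Krt14, Epcam, the genes of each list past the test filled up to 3 by the lowest p, its most abundant gene by TPM, and the 5 nearest profiles. Ebp, Lbr and Tm7sf2 were chosen after their values were seen. Some genes that this rule names are not reported here. Labels number the samples as biological replicates, and p-values measure the spread between these samples.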

Additional observations from a re-analysis of the deposited data

How the results depend on the processing

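With 16 alternatives, the number of the 8 genes past the test stayed at 0 in each. It could then only be 0 where a change of at least 1 on the log2 scale was also asked for. The number of genes called in the whole table ran from 1 to 1786 around the 77 of the reported fit. A fit that called few genes, such as limma-voom with 6, could hardly have called any of the 8, so its 0 says little. DESeq2 and the replicate block called 1786 and 1395 genes and also 0 of 8. The median of the 8 genes was between −0.80 and −0.15. Of 128 fold changes of single genes, 119 kept their direction, and 0 of 8 genes changed their call. Insig1 turned to −0.20 in limma-voom, −0.22 with the replicate block, −0.14 on log2(TPM + 1), −0.15 on log2(TPM + 0.1), −0.03 without control replicate 1 and −0.80 without cKO replicate 2. Hmgcs1 turned to 0.012 and Lss to 0.17 without cKO replicate 1, and Lss to 0.10 without cKO replicate 3. Over the 6 fits that left out 1 library, Hmgcs1 ran from −0.49 to 0.012, Lss from −0.80 to 0.17 and Insig1 from −0.80 to 0.40. DESeq2 called 3 efflux genes and 3 fatty acid genes, and the replicate block called 2 efflux genes, against 0, 1 and 0 as reported. The call of 1 uptake gene and that of 1 fatty acid gene went to 0 with DESeq2's size factors in edgeR, library size alone, at least 10 counts in every library and limma-voom, and the uptake call also went to 0 on log2(TPM + 1) and log2(TPM + 0.1). Leaving out 1 library gave 0 to 2 uptake genes, 0 to 1 efflux genes and 0 to 1 fatty acid genes. The replicate block changed no call of the 8 genes. The cause of these changes was not tested. No scaling moved the median of all genes by more than 0.06. With 3 libraries per group, the interval of Insig1, the widest of the 8 genes, ran from 46.3% to 236.7% of the control level. Differences inside it could not be detected for that gene. The interval of Hmgcs1 was narrower, from 58.0% to 127.1%.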
